A study of Mus musculus with 8 samples.

Results

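The genes described here are 10 immediate early and AP-1 genes, namely Fos, Jun, Junb, Egr1, Atf3, Ier3, Klf6, Gadd45a, Gadd45b and Cebpb. They were chosen by symbol, as all probes that the platform annotation assigns to one of these names, which gave 12 of the 25697 probes and 10 of the 16593 genes on the array. Their expression was measured in mouse liver with Illumina bead arrays, with 1 array per sample and 8 arrays in all. There were 3 liver samples of IL-4/IL-13-/- mice given carbon tetrachloride (CCl4) and 3 of wild-type mice given CCl4, set beside 1 sample of an IL-4/IL-13-/- mouse and 1 of a wild-type mouse given vehicle. All mice were Balb/c and 2 months old, and Il4 and Il13, the genes for the type 2 cytokines IL-4 and IL-13, are the ones missing from the knockout. The labels name no promoter or Cre for it. The sources used here do not state the dose, the time after CCl4, the vehicle or the sex of the mice. Nor do they say that the replicates were separate animals, so a p-value here reflects the spread among these arrays alone, and part or all of that spread may be technical.

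Immediate early genes are transcribed within minutes of a stimulus from factors already present in the cell, and their mRNAs are short-lived. Several of them encode bZIP transcription factors. Fos and Jun family proteins pair through a leucine zipper to form AP-1, which binds a short palindromic DNA element, while Atf3 and C/EBP proteins belong to the same superfamily. In liver these genes are classically induced when hepatocytes leave quiescence after partial hepatectomy or toxic injury. CCl4 injures hepatocytes around the central vein after their P450 enzymes have made a reactive radical of it.

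Promoter sequences are shown for the bZIP genes Fos, Jun, Junb and Atf3 and for Ier3, whose levels were above both vehicle arrays on all CCl4 arrays, and for the bZIP gene Cebpb, which did not pass the CCl4 test. Each is the stretch of 250 bases before the annotated start, from RefSeq on GRCm38.p6, whose mouse is C57BL/6J and not Balb/c. They are written 5′ to 3′ on the gene's strand, and capitals mark motif matches on either strand. The motifs searched were TATAA (the TATA box core), TGACG (the core of a cAMP response element), TGANTCA (the AP-1 element), TGACNTCA (the ATF and CREB form), the CArG box, the NF-kB site and the EGR site.
Fos, chr12:85473640-85473889, plus strand: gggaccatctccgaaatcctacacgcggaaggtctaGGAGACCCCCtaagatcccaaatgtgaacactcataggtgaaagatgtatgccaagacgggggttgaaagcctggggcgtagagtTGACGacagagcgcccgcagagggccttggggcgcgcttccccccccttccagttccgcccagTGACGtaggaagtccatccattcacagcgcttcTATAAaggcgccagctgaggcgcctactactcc
Jun, chr4:95052223-95052472, minus strand: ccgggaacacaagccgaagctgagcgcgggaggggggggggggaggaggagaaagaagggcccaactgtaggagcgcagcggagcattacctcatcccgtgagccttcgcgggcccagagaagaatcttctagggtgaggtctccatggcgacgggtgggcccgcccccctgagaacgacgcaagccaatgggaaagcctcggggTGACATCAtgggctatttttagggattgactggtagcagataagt
Junb, chr8:84978749-84978998, minus strand: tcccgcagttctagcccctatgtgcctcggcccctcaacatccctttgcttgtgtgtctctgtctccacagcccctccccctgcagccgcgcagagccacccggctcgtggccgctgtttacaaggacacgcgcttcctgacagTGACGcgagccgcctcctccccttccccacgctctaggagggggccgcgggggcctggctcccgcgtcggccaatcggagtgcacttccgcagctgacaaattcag
Atf3, chr1:191183334-191183583, minus strand: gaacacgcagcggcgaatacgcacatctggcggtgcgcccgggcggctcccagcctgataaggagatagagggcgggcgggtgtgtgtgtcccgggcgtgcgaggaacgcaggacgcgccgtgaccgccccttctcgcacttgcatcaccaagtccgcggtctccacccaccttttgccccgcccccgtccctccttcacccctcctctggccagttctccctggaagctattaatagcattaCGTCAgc
Ier3, chr17:35821463-35821712, plus strand: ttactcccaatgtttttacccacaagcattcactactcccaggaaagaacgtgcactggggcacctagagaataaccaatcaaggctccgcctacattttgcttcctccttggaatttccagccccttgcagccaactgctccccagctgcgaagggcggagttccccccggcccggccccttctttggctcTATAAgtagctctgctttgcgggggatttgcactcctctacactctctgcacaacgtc
Cebpb, chr2:167688665-167688914, plus strand: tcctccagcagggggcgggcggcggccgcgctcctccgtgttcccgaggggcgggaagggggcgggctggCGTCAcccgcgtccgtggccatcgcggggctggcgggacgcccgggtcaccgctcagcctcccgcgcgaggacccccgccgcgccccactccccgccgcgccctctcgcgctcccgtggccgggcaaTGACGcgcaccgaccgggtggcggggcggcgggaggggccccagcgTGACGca

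Of the 10 genes, 9 had a promoter entry and Egr1 was not matched. TATAA occurred in 3 of these 9 (Fos at -33 to -29 from the start, Ier3 at -58 to -54, and Gadd45b at -46 to -42), against 22.8% of 32851 mouse promoters of the same length. TGACG occurred in 4 (Fos, Junb, Atf3 and Cebpb), against 17.8% of promoters. In Fos it stood at -129 to -125 and at -66 to -62, and Cebpb held it at 3 places. TGACNTCA was found in Jun at -45 to -38 and in Klf6 at -119 to -112, against 7.49% of promoters. The NF-kB site was found in Fos at -214 to -205, against 5% of promoters. TGANTCA, the CArG box and the EGR site were found in 0 of the 9, against 6.75%, 1.47% and 3.06% of promoters. These are matches of letters in a short window and not sites of binding.

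Levels are given as log2 normalized intensities, after background correction and quantile normalization, and compare 1 probe between arrays, never 1 gene with another. A probe was called above background where its detection p-value, set against the array's negative controls, was under 0.01. Per array, 8899 to 9821 probes met this, and median raw intensities were 63.6 to 66.9 on knockout CCl4 arrays, 68.5 to 76.9 on wild-type CCl4 arrays, and 60.9 and 66.6 on the knockout and wild-type vehicle arrays. All knockout CCl4 arrays were therefore dimmer than all wild-type CCl4 arrays before normalization. Of 10 hepatocyte markers, 8 were above background on all 8 arrays. Il4 and Il13 were above background on 0 arrays (lowest detection p-values 0.272 and 0.0602), so their probes check nothing about the genotypes. In all, 7257 genes passed the filter on dim probes, and all 10 genes of the list did so. Differences come from 1 limma fit over these genes, with Benjamini-Hochberg adjustment and a threshold of 0.05. The vehicle groups have 1 array each, so each was assumed to vary like the CCl4 arrays. Whole liver was sampled, so fewer cells of a type and less RNA per cell cannot be told apart.

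CCl4 was followed by higher levels of most of the list. As the mean of both genotypes, 8 of the 10 genes rose and 0 fell, with a median difference of 2.06 on the log2 scale. Over all 7257 genes, 18.9% rose, 18.6% fell, and the median was -0.02. On all 6 CCl4 arrays, 6 of the 10 were above both vehicle arrays (Fos, Jun, Junb, Egr1, Atf3 and Ier3), as were 19% of all genes. Fos, Atf3 and Gadd45b passed the filter on dim probes only through CCl4 groups and were not above background on either vehicle array, so their increases are lower bounds and their calls lend the count no support. Of the other 7 genes, 5 rose and 4 lay above both vehicle arrays on all CCl4 arrays. With Fos, Atf3 and Gadd45b at their bounds the list's median was 1.54.

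**Figure D1:**
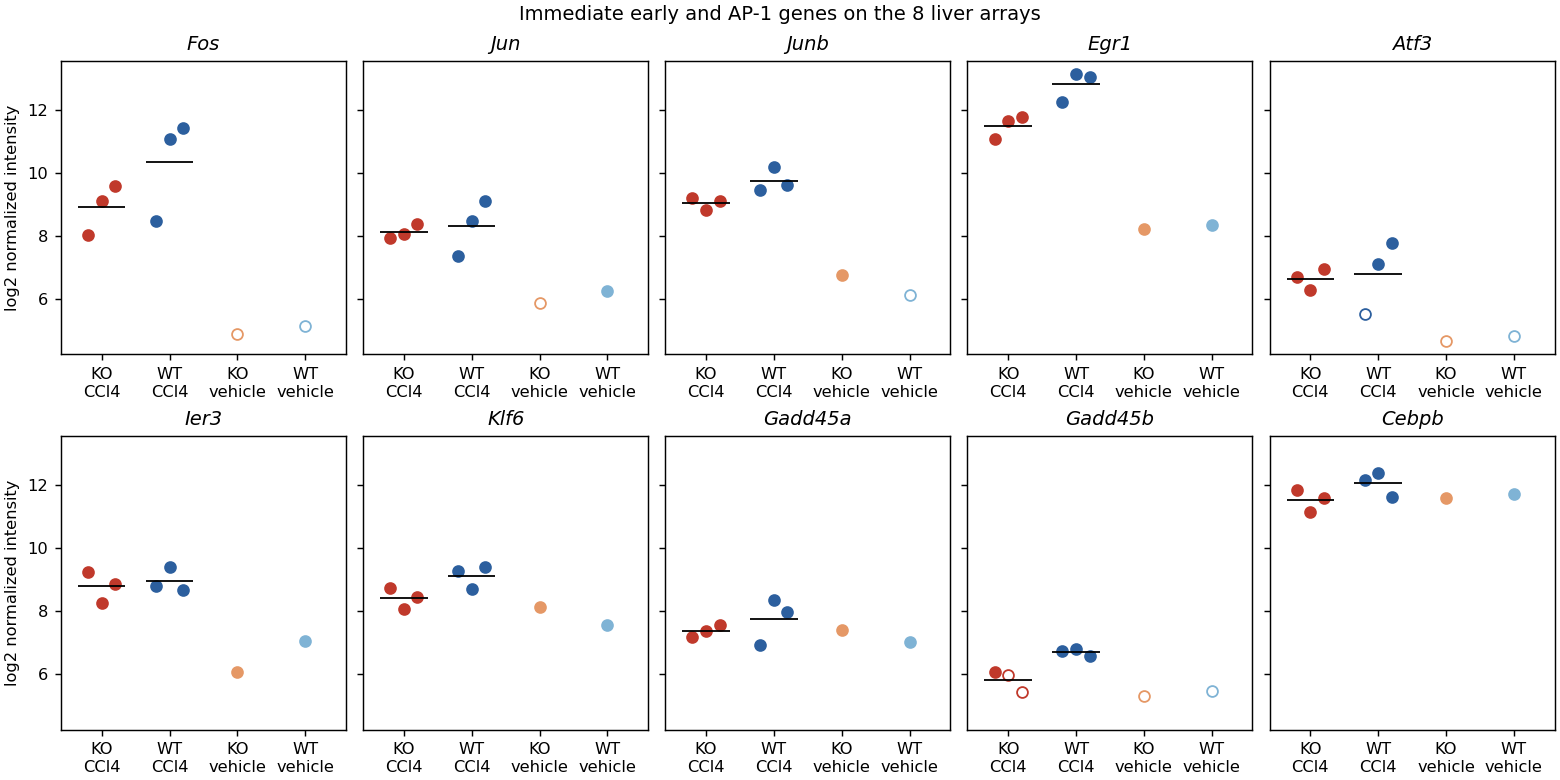
Log2 normalized intensity (vertical axis) of each gene on every array, with knockout CCl4, wild-type CCl4, knockout vehicle and wild-type vehicle from left to right. Points are arrays, filled where the detection p-value was under 0.01 and open otherwise, and the lines are means of 3 arrays. Fos, Jun, Junb, Egr1, Atf3 and Ier3 lie above both vehicle arrays on all 6 CCl4 arrays.

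Fos encodes the AP-1 subunit that cannot pair with itself and joins a Jun protein. Its log2 levels were 8.04, 9.10 and 9.60 in knockout CCl4 livers and 8.48, 11.09 and 11.44 in wild-type CCl4 livers, against 4.91 in the knockout vehicle liver and 5.17 in the wild-type vehicle liver. All 6 CCl4 arrays lay far above the vehicle pair, where the probe was not above background. The raw intensities showed the same order, with 266, 542 and 722 in knockout CCl4 livers and 504, 2420 and 2846 in wild-type CCl4 livers, against 54.9 and 68.9 in the knockout and wild-type vehicle livers. After CCl4, Fos rose by 4.59 ± 0.64 on the log2 scale (SE, limma adjusted p = 0.000266), which is at least 11.5-fold. Here and below, such a bound sets the mean of the CCl4 arrays against, per vehicle array, the higher of the lowest signal above background and the probe's own. The replicate spread of Fos was also wide. Its pooled SD on the CCl4 arrays was 1.28, at percentile 99.96 of all genes, whose median was 0.21.

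Jun encodes the AP-1 subunit that pairs with Fos or with itself. Its levels were 7.95, 8.06 and 8.38 in knockout CCl4 livers and 7.39, 8.48 and 9.12 in wild-type CCl4 livers, against 5.89 in the knockout vehicle liver and 6.26 in the wild-type vehicle liver. No CCl4 array overlapped the vehicle arrays, and the probe was above background on the wild-type vehicle array and not on the knockout one. Jun rose by 2.15 ± 0.34 (adjusted p = 0.000637). Junb, a Jun family member that activates AP-1 sites more weakly than Jun in many settings, had levels of 9.23, 8.82 and 9.12 in knockout CCl4 livers and 9.47, 10.20 and 9.62 in wild-type CCl4 livers. The knockout vehicle liver had 6.76 and the wild-type vehicle liver 6.13, where the probe was not above background. Junb rose by 2.96 ± 0.21 (adjusted p = 1.88e-06). Its pooled SD on the CCl4 arrays was 0.31, at percentile 81.7 of all genes.

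Egr1 and Klf6 encode zinc finger transcription factors. Egr1 binds GC-rich promoters and is an early gene of growth factor signalling. Its levels were 11.09, 11.64 and 11.77 in knockout CCl4 livers and 12.26, 13.12 and 13.04 in wild-type CCl4 livers, against 8.22 in the knockout vehicle liver and 8.37 in the wild-type vehicle liver. The 3 sets of arrays (knockout CCl4, wild-type CCl4, vehicle) did not overlap. Raw intensities were 2068, 3085 and 3262 in knockout CCl4 livers and 5704, 8730 and 8372 in wild-type CCl4 livers, against 288 and 359 in the knockout and wild-type vehicle livers. Egr1 rose by 3.86 ± 0.25 (adjusted p = 9.5e-07), the smallest p-value of the list, and its probe was above background on all 8 arrays.

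Klf6, which was first described as a core promoter-binding protein, had levels of 8.74, 8.09 and 8.45 in knockout CCl4 livers and 9.26, 8.71 and 9.40 in wild-type CCl4 livers. The knockout vehicle liver had 8.12 and the wild-type vehicle liver 7.56. One knockout CCl4 array lay just under the knockout vehicle array, while all wild-type CCl4 arrays lay above both vehicle arrays. Klf6 rose by 0.93 ± 0.22 (adjusted p = 0.00671). This value rested on the wild-type pair: without the wild-type vehicle array the difference, then of the knockout alone, was 0.30 (adjusted p = 0.493), and without the knockout vehicle array it was 1.56. A second Klf6 probe was not above background on any array and was not tested.

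Atf3 encodes a stress-induced repressor of the ATF family. Its levels were 6.71, 6.30 and 6.96 in knockout CCl4 livers and 5.54, 7.12 and 7.77 in wild-type CCl4 livers, against 4.68 in the knockout vehicle liver and 4.84 in the wild-type vehicle liver. All CCl4 arrays exceeded the vehicle pair, although wild-type CCl4 replicate 1 and both vehicle arrays were not above background. Atf3 rose by 1.97 ± 0.44 (adjusted p = 0.00464), at least 1.55-fold. Its call was lost with no filter on dim probes (adjusted p = 0.0565), and its size was 1.23 without background correction. Cebpb encodes a C/EBP factor of the acute phase response and of liver regeneration. Its levels were 11.85, 11.15 and 11.58 in knockout CCl4 livers and 12.17, 12.37 and 11.62 in wild-type CCl4 livers, against 11.58 in the knockout vehicle liver and 11.70 in the wild-type vehicle liver. The CCl4 and vehicle arrays overlapped, and the difference was 0.15 ± 0.23 (95% interval -0.35 to 0.65, adjusted p = 0.638).

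Ier3 encodes a small early-response protein that affects cell survival. Its levels were 9.26, 8.25 and 8.86 in knockout CCl4 livers and 8.81, 9.41 and 8.67 in wild-type CCl4 livers, against 6.07 in the knockout vehicle liver and 7.05 in the wild-type vehicle liver. The CCl4 groups overlapped each other and lay above both vehicle arrays, which themselves differed by almost as much as the 3 knockout CCl4 arrays. Ier3 rose by 2.31 ± 0.26 (adjusted p = 7.32e-05).

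Gadd45a and Gadd45b encode small stress proteins that bind cell cycle and MAP kinase regulators. Gadd45b had 6.08, 5.98 and 5.44 in knockout CCl4 livers and 6.75, 6.80 and 6.58 in wild-type CCl4 livers, against 5.30 in the knockout vehicle liver and 5.47 in the wild-type vehicle liver. Its probe was above background on 1 of 3 knockout CCl4 arrays, on all 3 wild-type CCl4 arrays and on 0 of 2 vehicle arrays. Gadd45b rose by 0.89 ± 0.19 (adjusted p = 0.00374), at least 1.13-fold, and without the wild-type vehicle array the difference was 0.54 (adjusted p = 0.153). It ran from 0.49 without background correction to 1.55 in the deposited values. Gadd45a, a known p53 target, had 7.20, 7.39 and 7.55 in knockout CCl4 livers and 6.92, 8.36 and 7.99 in wild-type CCl4 livers, against 7.40 in the knockout vehicle liver and 7.01 in the wild-type vehicle liver. These groups overlapped, and the difference was 0.36 ± 0.30 (adjusted p = 0.364). Without wild-type CCl4 replicate 1 it was 0.57 (adjusted p = 0.0334). The second Gadd45a probe gave -0.23 ± 0.26 (adjusted p = 0.513), with the opposite sign.

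Within each genotype the same comparison rests on 3 CCl4 arrays and 1 vehicle array. In knockout livers 6 of the 10 genes rose and 0 fell (median 2.11, or 1.33 with the 4 genes not above background on the vehicle array at their bounds, against -0.0097 over all genes), where 13% of all genes rose and 12.8% fell. In wild-type livers 8 rose and 0 fell (median 1.94, or 1.73 with 4 such genes at their bounds, against -0.02), where 12.4% of all genes rose and 11.6% fell. Fos and Atf3, in both counts, and Gadd45b, in the wild-type count, passed the filter only through CCl4 groups. Their calls lend these counts no support. Junb rose by 2.29 ± 0.29 in knockout livers (adjusted p = 0.000405) and by 3.64 ± 0.29 in wild-type livers (at least 12.4-fold, adjusted p = 1.11e-05). Egr1 rose by 3.28 ± 0.35 in knockout livers (adjusted p = 0.000128) and by 4.44 ± 0.35 in wild-type livers (adjusted p = 1.02e-05). For Ier3 the increase was 2.72 ± 0.37 in knockout livers (adjusted p = 0.000626) and 1.91 ± 0.37 in wild-type livers (adjusted p = 0.00406), the only one of these 3 that was larger in the knockout.

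Fos rose by 4.01 ± 0.90 in knockout livers (at least 7.23-fold) and by 5.17 ± 0.90 in wild-type livers (at least 18.4-fold), with adjusted p = 0.00872 and 0.00222. Jun rose by 2.24 ± 0.48 in knockout livers (at least 4.20-fold) and by 2.07 ± 0.48 in wild-type livers (adjusted p = 0.00719 and 0.0105). With a trended robust prior for the spread Fos did not pass in either genotype (adjusted p = 0.115 in the knockout and 0.0679 in wild type), and with no filter on dim probes Jun did not pass in either (adjusted p = 0.0659 and 0.0855), nor Fos in the knockout (adjusted p = 0.0863). Atf3 rose by 1.98 ± 0.62 in knockout livers (at least 1.51-fold) and by 1.97 ± 0.62 in wild-type livers (at least 1.60-fold, adjusted p = 0.0360 and 0.0389). These Atf3 calls were lost under 7 of 18 alternatives in each genotype, among them leaving out knockout CCl4 replicate 1 or 3 for the knockout (adjusted p = 0.0638 and 0.0822), and leaving out knockout CCl4 replicate 3 or wild-type CCl4 replicate 2 or 3 for wild type (adjusted p = 0.0514, 0.0585 and 0.0835).

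Klf6 and Gadd45b passed in wild-type livers, at 1.56 ± 0.31 (adjusted p = 0.00449) and 1.25 ± 0.27 (adjusted p = 0.00651, at least 1.49-fold). In knockout livers they gave 0.30 ± 0.31 (adjusted p = 0.497) and 0.53 ± 0.27 (adjusted p = 0.162). Passing in 1 genotype and not the other does not show a difference, which the interaction tests below. Gadd45a gave -0.02 ± 0.42 in knockout livers and 0.74 ± 0.42 in wild-type livers, and Cebpb gave -0.06 ± 0.32 and 0.35 ± 0.32, with no call for either gene. Without wild-type CCl4 replicate 1, Gadd45a rose in wild-type livers (1.16, adjusted p = 0.0148).

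**Figure D2:**
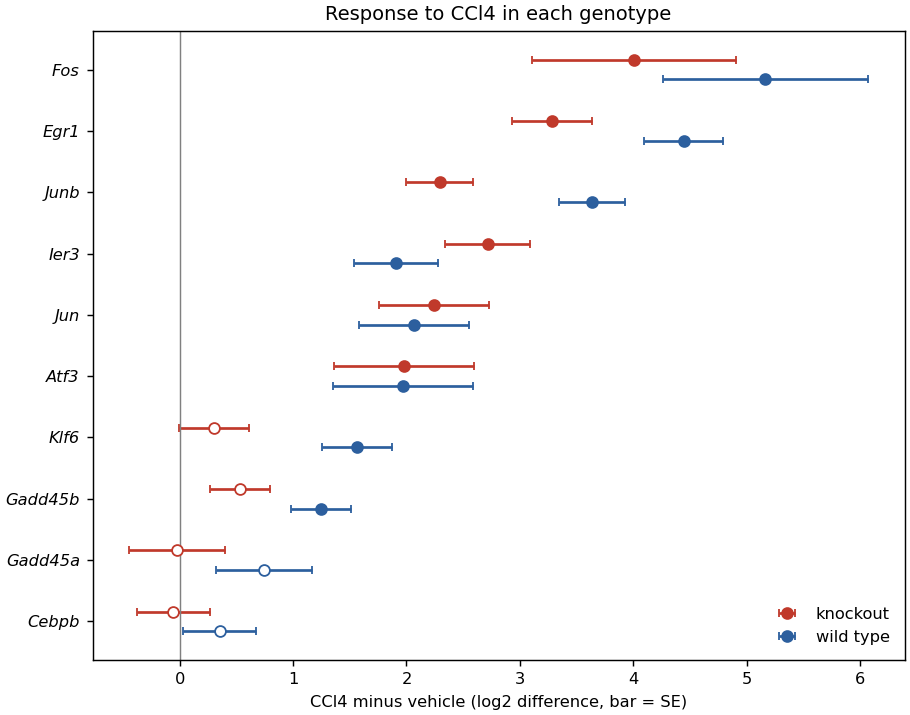
CCl4 minus vehicle (log2 difference, horizontal axis) for each gene in knockout (red, upper point) and wild-type (blue, lower point) livers, from 3 CCl4 arrays and 1 vehicle array each. Bars are standard errors, filled points passed the limma test, and open points did not. Klf6 and Gadd45b are filled in wild type and open in the knockout.

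After CCl4, the list was lower in knockout than in wild-type livers for Egr1 and Gadd45b. Of the 10 genes, 0 were higher and 2 were lower, where 2.89% of all genes rose and 3.6% fell in knockout relative to wild-type livers. All 10 differences were below 0, with a median of -0.61, against -0.01 over all genes. The arrays did not overlap, with all knockout arrays lower, for 3 of the 10 (Egr1, Junb and Gadd45b), a share that was 16.3% over all genes. Gadd45b passed the filter only through wild-type CCl4, where it is high, and lends this count no support. All knockout arrays were higher for 0 of the 10, against 14% of all genes. The split of all genes moved with the scaling. With median scaling the centre of all genes shifted by -0.16, and 172 genes were higher and 706 lower, in place of 210 and 261. With the deposited values it shifted by -0.35, and 57 were higher and 1247 lower. Relative to those medians all 10 genes stayed below, with a list median of -0.56 and -0.58.

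Egr1 was lower in knockout livers, with a difference of -1.31 ± 0.25 (adjusted p = 0.0160), a ratio of 0.404, and its 3 knockout arrays lay below all 3 wild-type arrays. Without knockout CCl4 replicate 1 the difference was -1.10 (adjusted p = 0.0620), and with no filter on dim probes the adjusted p was 0.0988. Relative to the median of all genes it was -1.12 with median scaling and -1.09 in the deposited values. Gadd45b was also lower, with a difference of -0.88 ± 0.19 (adjusted p = 0.0240). Its probe was above background on 1 of 3 knockout and all 3 wild-type arrays, and it passed the filter only through wild-type CCl4, where it is high, so its call lends the count no support. Leaving out knockout CCl4 replicate 2 or 3, or wild-type CCl4 replicate 1 or 2, ended its call (adjusted p = 0.0564, 0.0824, 0.0795 and 0.0528), as did no filter (adjusted p = 0.0898) and leaving out both replicates 1 (adjusted p = 0.141). Over the alternatives its size ran from -1.54 in the deposited values to -0.52 without background correction.

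Fos differed by -1.42 ± 0.64 (95% interval -2.82 to -0.021, adjusted p = 0.191). The knockout and wild-type arrays overlapped, with wild-type CCl4 replicate 1 between the knockout values, and without that array the difference was -2.37 (adjusted p = 0.0158). Junb differed by -0.71 ± 0.21 without overlap (adjusted p = 0.0649) and passed under 5 of 20 alternatives, with the lowest adjusted p = 0.0187. Klf6 differed by -0.69 ± 0.22 (adjusted p = 0.0828) and also passed under 5 of 20, among them without wild-type CCl4 replicate 2 (-0.91, adjusted p = 0.0361). Cebpb differed by -0.53 ± 0.23 (adjusted p = 0.178) and Gadd45a by -0.37 ± 0.30 (adjusted p = 0.472). The smallest differences were those of Jun (-0.19, 95% interval -0.95 to 0.56), Ier3 (-0.17, -0.75 to 0.41) and Atf3 (-0.16, -1.11 to 0.80). In all, 6 of the 10 were lower with an unadjusted p-value under 0.05, as were 13.1% of all genes. Among these 6 was Gadd45b, which passed the filter only through wild-type CCl4 and lends this count no support.

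**Figure D3:**
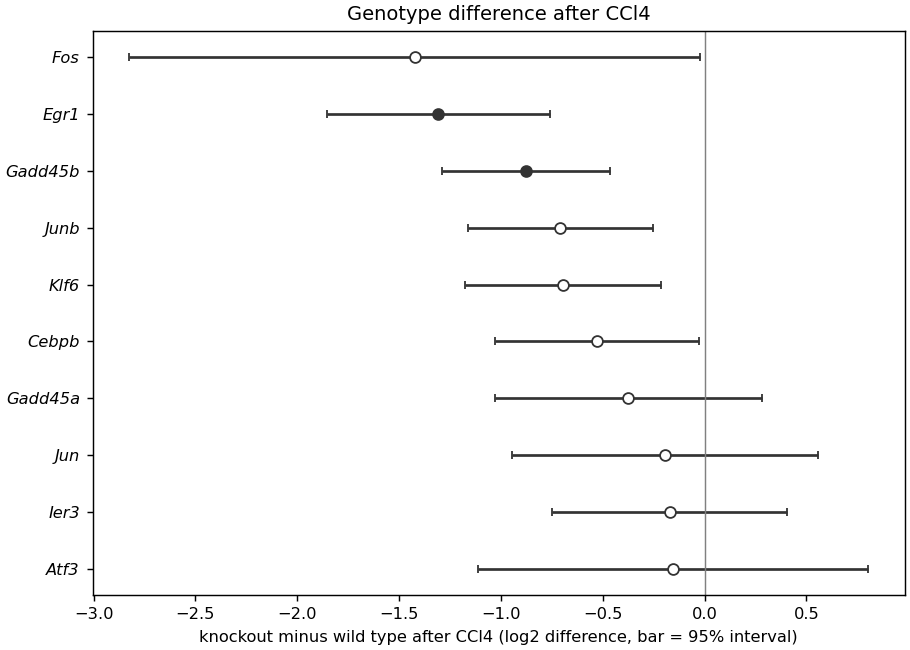
Knockout minus wild type after CCl4 (log2 difference, horizontal axis) for each gene, from 3 arrays per genotype. Bars are 95% intervals, and filled points passed the adjusted limma test. All 10 points lie below 0, and Egr1 and Gadd45b are filled.

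The difference between the CCl4 responses of the knockout and the wild type (interaction) was called for 0 of the 10 genes by limma, with 3 at an unadjusted p under 0.05 (19.9% of all genes), and 0.179% of all genes were called higher and 0.179% lower. Junb had -1.34 ± 0.41 (adjusted p = 0.134), Klf6 -1.26 ± 0.44 (adjusted p = 0.160) and Egr1 -1.16 ± 0.50 (adjusted p = 0.230). For Fos it was -1.16 ± 1.28 (adjusted p = 0.646) and for Ier3 0.81 ± 0.53 (adjusted p = 0.418). The 10 values ran from -1.34 to 0.81, with 7 below 0. The vehicle livers had no test, with 1 array each. There, 0 of the 10 genes differed by at least 1 on the log2 scale, where 2.08% of all genes were that much higher and 1.96% that much lower in the knockout vehicle liver. Ier3 differed most, with 6.07 in the knockout vehicle liver and 7.05 in the wild-type vehicle liver. Junb had 6.76 and 6.13 and Klf6 8.12 and 7.56 in the knockout and wild-type vehicle livers.

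Among the CCl4 arrays, the genes followed different orders. The lowest wild-type CCl4 array was replicate 1 for 6 of the 10 (Fos, Jun, Junb, Egr1, Atf3 and Gadd45a), which was so for 29.6% of all genes. In both genotypes replicate 1 was the lowest for 4 (Fos, Jun, Egr1 and Gadd45a), with Fos 1.86 below the wild-type mean and 0.88 below the knockout mean. Junb, Ier3 and Cebpb shared another order: replicate 2 was the lowest and replicate 1 the highest in the knockout, and replicate 2 was the highest in wild type. The share of all genes with either pattern across both genotypes was not computed, so neither can be called particular to the list. The widest spreads were those of Fos, Atf3 (pooled SD 0.84, percentile 99.8) and Jun (0.64, percentile 99.2), and the narrowest that of Gadd45b (0.26, percentile 67.7). Replicates carrying the same number in the labels did not deviate together over all genes. That does not settle whether some genes share a pairing. The labels do not say whether the number pairs the arrays, and no pairing was assumed.

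**Figure D4:**
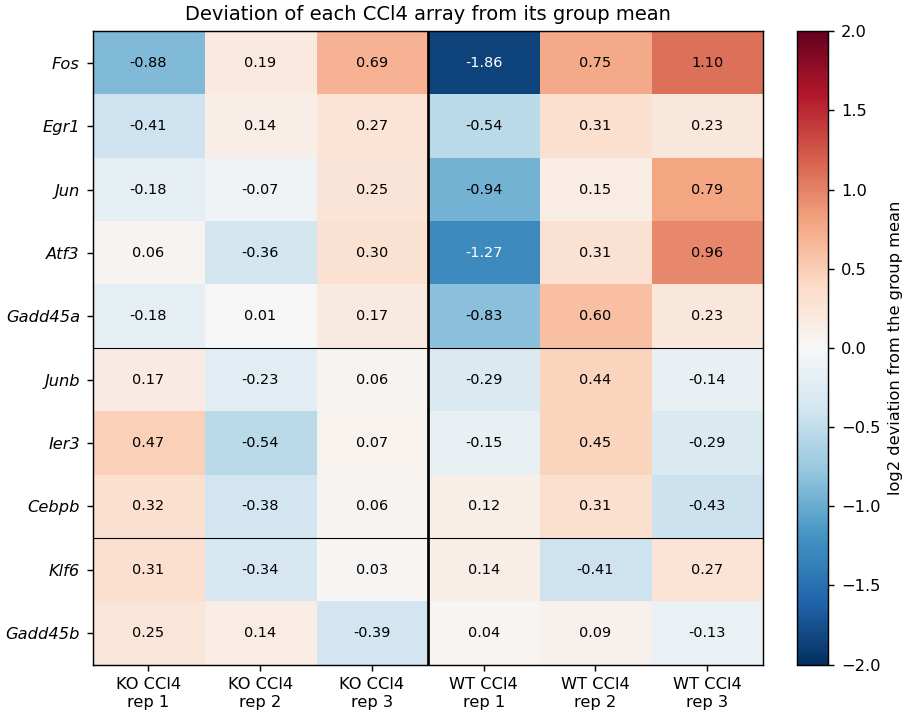
Deviation of each CCl4 array from the mean of its group (log2, colour and printed values), with knockout arrays left of wild-type arrays. Lines separate blocks of rows, and the genes within a block do not all share an order of arrays. Fos, Egr1, Jun and Gadd45a are lowest on replicate 1 in both genotypes, and Fos on wild-type replicate 1 deviates most, at -1.86.

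The genes outside the list whose profile over the 8 arrays was most like the mean scaled profile of the 10 were Ncapd2 (Pearson r = 0.991), Spag5 (0.987), Kif22 (0.983), Arhgef39 (0.981) and Kif2c (0.981). Ncapd2 encodes a condensin subunit, and Spag5, Kif22 and Kif2c encode proteins of the mitotic spindle. These coefficients describe 8 arrays in 4 groups that share the CCl4 contrast. The mean scaled profile was -0.17 to 0.17 on knockout CCl4 arrays and 0.29 to 1.05 on wild-type CCl4 arrays, against -1.18 and -1.19 on the knockout and wild-type vehicle arrays.

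Other genes of the pathway are given by lists chosen, like the 10 genes, with results of these data known. Of 8 tested bZIP partners of the Fos, Jun, Atf and Maf families (19 on the array), 0 rose and 1 fell after CCl4, namely Mafg, a small Maf protein (-0.74 ± 0.17, adjusted p = 0.0066). Their median was -0.12 and 0 differed between the genotypes after CCl4. The other C/EBP gene tested, Cebpa, which restrains hepatocyte proliferation, fell by 1.75 ± 0.19 (adjusted p = 5.2e-05) while Cebpb did not pass. Of 14 tested genes of the MAP kinase cascade, with Srf and Mrtfb counted in, 0 rose and 2 fell, the JNK genes Mapk8 (-1.29 ± 0.21) and Mapk9 (-0.60 ± 0.16). No ternary complex factor was among the 14. Of 7 phosphatases and feedback inhibitors, Dusp6 (0.92 ± 0.17) and Dusp3 (at least 1.17-fold) rose and 0 fell. Dusp3 passed the filter only through CCl4 groups, so its call lends this count no support. The p-values here were limma's, adjusted over all genes.

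Of 26 other early genes tested, 7 rose and 2 fell after CCl4 (median 0.26), a share of 26.9% rising against 18.9% of all genes. They included Socs3, an inhibitor of cytokine signalling (3.57 ± 0.41), Id1, which blocks bHLH factors (2.35 ± 0.26), and the matricellular gene Ccn2 (2.28 ± 0.33), while Tsc22d1 fell by 1.27 ± 0.20. The other to fall was Klf9 (-0.93 ± 0.19), named after its value was seen. After CCl4 the knockout was higher than wild type for 2 and lower for 2. Sgk1, a kinase gene, was higher by 1.23 ± 0.18 (adjusted p = 0.00436) and Btg1, an antiproliferative gene, was lower, at -0.57 ± 0.15 (adjusted p = 0.0443). Id3 (0.94) and Klf9 (-0.72) were named after their values were seen.

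Of 10 tested textbook AP-1 targets, 9 rose and 0 fell after CCl4, where 18.9% of all genes rose and 18.6% fell. Their median was 1.41, from fitted differences and not from bounds. Timp1, a metalloproteinase inhibitor, rose at least 4.09-fold (adjusted p = 1.06e-06) and the elastase gene Mmp12 at least 1.74-fold, both not above background on the vehicle arrays. That was so for 6 of the 9 in all, which passed the filter only through CCl4 groups, so their calls lend the count no support. Vegfa differed by -1.15 in wild-type livers and by 0.21 in knockout livers. The cyclin D1 gene Ccnd1 rose by 2.10 ± 0.20 and Lgals3 by 2.06 ± 0.19. Of these 10, 0 differed between the genotypes after CCl4. Heat shock genes rise with heat or handling of tissue. Of 7 tested, Hsp90aa1 (0.70 ± 0.16) and Bag3 (0.49 ± 0.16) were higher and Dnaja1 (at least 1.33-fold) lower after CCl4, where 18.9% of all genes rose and 18.6% fell. Dnaja1 was above background on 0 CCl4 arrays and passed the filter only through the vehicle groups, where it is high, so its call lends this count no support. Between the genotypes 0 of 7 were called.

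Markers of other liver cells moved with CCl4, and their part in the results above was not tested. Of 9 hepatocyte markers 0 were called, which does not show that their levels were unchanged. The Alb probe was above background on 1 of 3 knockout CCl4, 2 of 3 wild-type CCl4 and 1 of 2 vehicle arrays. All 3 neutrophil markers tested rose, where 18.9% of all genes did, with Ngp, Camp, Ltf, Mpo, Elane and Cxcr2 also on the array but not past the filter. Of these 3, Retnlg (at least 2.01-fold) passed the filter only through wild-type CCl4, where it is high, and neither vehicle liver showed it over background. Its call lends the count no support. S100a8 and S100a9 were above background on every array. S100a8 rose by 2.55 ± 0.39, and the summed normalized level was 1917 to 7621 on knockout CCl4 arrays and 1977 to 2676 on wild-type CCl4 arrays, against 636 and 483 on the knockout and wild-type vehicle arrays. Of 8 monocyte and macrophage markers tested (Marco, Ccr2 and Itgam were not past the filter), Cd14 (2.43 ± 0.26) and Ly6c1 (at least 1.32-fold) rose and 0 fell. Ly6c1 passed the filter only through knockout CCl4, so its call lends this count no support. The macrophage sums were 9398 to 12152 in knockout CCl4 livers and 8462 to 13707 in wild-type CCl4 livers, against 9104 and 7369 in the knockout and wild-type vehicle livers. Of 7 stellate cell markers tested (Col1a2, Pdgfrb and Tagln were not past the filter), 4 rose (Acta2 by 3.66 ± 0.24, Col1a1, Des by 0.57 ± 0.16 and Col3a1, named after its value was seen, by 1.01 ± 0.31) and Lrat fell (-1.14 ± 0.18, above background on 1 of 6 CCl4 arrays). Lrat passed the filter only through the vehicle groups, where it is high, so its call lends the count no support. Col1a1 was not above background on any vehicle or knockout CCl4 array. It passed only through wild-type CCl4, and its call lends the count no support either. Its response was -0.29 in knockout livers (adjusted p = 0.496) and 1.82 in wild-type livers (adjusted p = 0.00147). Of 6 sinusoidal endothelium markers tested (Kdr and Cdh5 were not past the filter), Lyve1 (1.85 ± 0.19) and Stab1 (0.48 ± 0.17) rose. Of the cholangiocyte and lymphocyte markers on the array, 4 and 8, 0 passed the filter on dim probes.

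Between the genotypes after CCl4, 1 of 7 stellate cell and 2 of 6 endothelium markers were called lower in the knockout, where 3.6% of all genes were. Col1a1, a collagen gene of activated stellate cells, was at least 1.57-fold lower (adjusted p = 0.00366) and was the only 1 of 7 stellate markers called. It passed the filter only through wild-type CCl4, where it is high, so its call lends the count no support. The summed level of the stellate list was 7875 to 8284 in knockout CCl4 livers and 9933 to 12369 in wild-type CCl4 livers, against 7539 and 7010 in the knockout and wild-type vehicle livers. Lyve1 (-0.84 ± 0.19, adjusted p = 0.0302) and Stab2 (-0.59 ± 0.16, adjusted p = 0.0481), both of sinusoidal endothelium, were lower in the knockout, and that list summed to 4591 to 4827 in knockout CCl4 livers and 5884 to 6557 in wild-type CCl4 livers. In the vehicle livers it was also lower in the knockout, at 3883 against 5109 in wild type. After CCl4 the genotypes did not overlap in either sum. Each sum adds linear levels, so the brightest probes weigh most. They were Dcn (-0.35, adjusted p = 0.164) and Reln (-0.79, adjusted p = 0.0515) for stellate cells, and Clec4g (-0.33, adjusted p = 0.188) for endothelium. None of them was called, and the sums need not stand for the other markers. The summed MAP kinase list did not overlap either (7274 to 8015 in knockout and 8633 to 10159 in wild-type CCl4 livers). Nor did Cebpa, which was higher in the knockout. In the vehicle livers the MAP kinase sum was 9324 in the knockout and 8447 in wild type. The normalized Cebpa level there was 473 in the knockout and 316 in wild type. Of all genes, 16.3% were lower on all knockout arrays without overlap, and 14% were higher. Of 9 hepatocyte, 8 macrophage and 3 neutrophil markers, 0 were called between the genotypes. The part of these markers in the genotype differences was not tested.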

How the data were processed

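Per the labels' protocols, liver RNA was taken up in Trizol, cleaned on a column and turned into biotin-labelled cRNA. The deposited table holds 1 raw bead intensity per probe and array, per the file headers, without normalization, beside a detection p-value that the authors deposited with it. Scanner software and the aim of the constant (48.6 to 56.8 per array) subtracted in the authors' deposited value table, whose intensity scale is otherwise that of the raw table (medians 12.3 to 20.0), are not stated in the sources used here. That value table was used only as an alternative, with the direction of the raw intensities.

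Background correction and quantile normalization used the neqc function (offset 16) of limma, version 3.58.1, under R 4.3.3. A probe was kept where all arrays of 1 or more groups had a detection p-value under 0.01 (10128 probes). Of all probes 23978 had 1 symbol in the platform annotation, 0 had several and 1719 had none, and 23962 matched RefSeq through Entrez identifiers. The brightest probe stood for a gene (7257 genes). A model with 4 group means (lmFit, eBayes, 2-sided) gave 5 contrasts on 4 residual degrees of freedom, all from CCl4 arrays. Precision is limited by how few arrays there are, with a median SE of 0.17 for CCl4 and for genotype and 0.35 for the interaction. The fit was tested on simulated arrays with known changes.

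Same-numbered arrays had deviation correlations of -0.12, -0.11 and -0.01, so no block was used. The 10 genes and the lists were chosen with earlier results of these data known. Named beside them were, per list, up to 4 genes by smallest p for CCl4 and up to 2 for genotype, and the 5 genes most like the mean profile. Alternatives covered background, scaling, offset, filter, probe, prior, block and leaving out arrays.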

Additional observations from a re-analysis of the deposited data

How the results depend on the processing

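Over 50 values (10 genes in 5 contrasts) and 920 alternatives, 849 kept direction and side of the threshold, 30 lost a call, 17 gained one and 24 changed sign, with each sign change in a value without a call. Leaving out both CCl4 replicates 1 was chosen after seeing the data. The number of genes on the list that rose in knockout livers was 6 and became 3 with no probe filter. The number lower in knockout than in wild-type livers after CCl4 was 2, and it became 4 with median scaling, with the deposited values, with a trended robust prior and with the replicate block, and 0 with no probe filter. Leaving out single arrays gave 1 to 2, with 1 for each knockout CCl4 array left out. Without a vehicle array the interaction and that genotype's response have no value. The labels do not say whether the replicate numbers pair the arrays. With the replicate block, Fos (-1.42, adjusted p = 0.0120) and Klf6 (-0.69, adjusted p = 0.0440) were called lower in the knockout, and 214 genes were higher and 214 lower, while Atf3 no longer passed in the knockout (adjusted p = 0.0780) or in wild type (adjusted p = 0.0802). The block changed no other call on the list. The cause of these changes was not tested. With no filter the adjustment ran over 16593 genes, and the SEs changed as well. For CCl4 minus vehicle they went from 0.64 to 0.81 for Fos and from 0.19 to 0.18 for Gadd45b.

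These signs changed, each without a call. For CCl4 minus vehicle, Gadd45a was -0.146 with the replicate block and, without single arrays, -0.0202 (without the wild-type vehicle array) to 0.739. Cebpb ran from -0.0538, without the same array, to 0.351. In the knockout, Gadd45a was 0.0123 with median scaling, 0.0844 in the deposited values, 0.0723 without both replicates 1 and -0.108 to 0.0720 without single arrays, highest without knockout CCl4 replicate 1. Cebpb was 0.163 with the replicate block and -0.215 to 0.133 without single arrays, highest without knockout CCl4 replicate 2. Between the genotypes after CCl4, single arrays left out gave -0.787 to 0.320 for Atf3 and -0.670 to 0.203 for Jun, both highest without wild-type CCl4 replicate 3, and -0.407 to 0.0980 for Ier3, highest without knockout CCl4 replicate 2. For the interaction, Jun was -0.0163 with median scaling, -0.214 without both replicates 1 and -0.305 to 0.573 without single arrays. Atf3 was -0.181 with median scaling, -0.510 in the deposited values, -0.0952 with an offset of 50, -0.655 without both replicates 1 and -0.624 to 0.484 without single arrays, both genes lowest without wild-type CCl4 replicate 1.

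Over all genes, those higher and lower between the genotypes numbered 210 and 261, against 41 and 66 with no filter, 16 and 34 without both replicates 1, and 41 to 451 and 73 to 360 without single arrays. For CCl4 minus vehicle, 1370 rose and 1352 fell, with 786 falling in the deposited values and 912 and 858 without the knockout vehicle array. Those falling in wild type were 845, against 377 in the deposited values and 476 without both replicates 1, and those falling in the knockout were 928, against 511 and 603. The interaction called 13 and 13, with 0 to 95 in either direction under the alternatives. For CCl4 minus vehicle the centre of all genes shifted by 0.16 with the deposited values.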
